A study of Mus musculus with 9 samples.

Results

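The 7 TNF receptor-associated factors (Traf1 to Traf7), the cellular inhibitors of apoptosis cIAP1 and cIAP2 (Birc2 and Birc3) and the kinase NIK (Map3k14) were described as 1 family of signalling genes across 9 mouse RNA-seq libraries. The 10 members were taken by gene symbol, with the RefSeq row of highest total kept for each gene, out of 25160 genes in the deposited table. Naive CD4+ T cells sorted from C57BL/6 spleens had been cultured on plates coated with 1 µg/ml of antibody to CD3e, a signalling chain of the T cell receptor complex. The 3 groups of 3 libraries were wild-type cells on 19 µg/ml anti-CD40L, cells of mice lacking CD40L in T cells (titled KO, genotype label cre) on 19 µg/ml isotype control antibody, and wild-type cells on 19 µg/ml isotype antibody. All groups therefore shared the CD3e stimulus, and none of the 9 libraries came from cells without it. The promoter that drives Cre, the age of the mice, the duration of culture and any pooling of animals are not stated in the labels.

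TRAF proteins are cytoplasmic adaptors that dock onto the tails of TNF receptor family members such as CD40, OX40 and 4-1BB, and most of them carry a RING domain of the kind found in ubiquitin ligases. In resting cells TRAF3 holds NIK beside a TRAF2 and cIAP complex that marks NIK for degradation. Receptor engagement breaks this arrangement, so that NIK accumulates and drives the processing of NF-kB2 p100, while TRAF2, TRAF5 and TRAF6 also feed the canonical NF-kB and MAP kinase branches. CD40L is the ligand of CD40 and sits on activated CD4+ T cells, so the antibody bound the ligand side of this receptor system.

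Total counts per library over genes ranged from 5316482 to 15565711, and replicate 3 of the wild-type anti-CD40L group had the lowest. That library had a count for 11673 genes, against 14290 to 17428 in the others, and on the first principal component of log2 CPM (47.6% of the variance) it lay at 52.78 while the others lay between -17 and 17.49. Levels are given as CPM, the count scaled to an equal library size by the TMM method. The targeted gene, Cd40lg, was at 109, 132 and 163 CPM on anti-CD40L, at 145, 136 and 150 CPM in the KO-labelled libraries, while wild-type isotype had 142, 154 and 189 CPM. These counts cover the whole transcript and the labels do not name the deleted part, so the label KO could not be checked by them. The CD4+ T cell label could: Cd4 was at 412 to 495 CPM and Cd3e at 366 to 437 CPM in all 9 libraries, while Cd8a was at most 2.82 CPM. Summed over the 2 CD8 T cell markers, Cd8a and Cd8b1, the level was higher. It was 6.27 to 10.5 CPM on anti-CD40L, 7.61 to 11.9 CPM in KO-labelled libraries and 7.32 to 11.1 CPM in wild-type isotype. The labels do not say whether replicates are separate animals or cultures. The p-values therefore rest on the spread of these libraries alone, which may be technical.

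Among the 10 members, Traf5 and Traf4 were the ones whose level passed the test, and their promoters are shown as the sequence next to the transcription start of the members whose RNA level moved. Each is the 250 bases before the RefSeq transcription start in GRCm38.p6, read 5′ to 3′ on the gene's strand, which is the minus strand for both. The Traf4 window overlaps the first bases of the gene span given for it here, which begins farther upstream. Capitals mark GGGNNNNNCC on either strand, a loose form of the site that NF-kB dimers bind.
Traf5, chr1:192092600-192092849: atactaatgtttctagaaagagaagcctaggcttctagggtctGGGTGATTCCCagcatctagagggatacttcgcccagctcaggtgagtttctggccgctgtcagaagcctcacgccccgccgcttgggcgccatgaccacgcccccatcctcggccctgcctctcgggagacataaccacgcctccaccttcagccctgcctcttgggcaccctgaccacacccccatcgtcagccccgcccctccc
Traf4, chr11:78165551-78165800: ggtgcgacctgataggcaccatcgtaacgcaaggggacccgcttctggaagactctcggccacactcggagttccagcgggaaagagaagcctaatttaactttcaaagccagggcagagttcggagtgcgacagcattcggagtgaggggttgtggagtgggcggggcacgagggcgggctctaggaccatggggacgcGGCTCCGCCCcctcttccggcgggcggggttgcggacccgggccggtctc
In Traf5 a match on the given strand began 207 bases before the start and overlapped a match on the other strand that began 206 bases before it. In Traf4 the match was on the other strand, 50 to 41 bases before the start. The motif is common: 45.8% of all 32851 promoter windows of 250 bases held it, as did 8 of the 11 windows of the 10 members. The stricter kB consensus was in 7.25% of all windows and in 1 member window, that of Traf3, the adaptor that holds NIK in check. Such matches describe letters only and are not evidence of binding.

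All 10 members had enough counts to be tested. A gene was called where its adjusted p was under 0.05. On anti-CD40L, 2 of the 10 changed against wild-type isotype: Traf5 fell and Traf4 rose (edgeR quasi-likelihood F test, p-values adjusted over 11256 genes by the Benjamini-Hochberg method, as throughout). In that comparison 9.37% of all genes tested were called, 2.91% higher and 6.46% lower. The genes higher were 31.1% of those called, and 11.7% to 39.8% over the alternatives. The other 8 members had log2 fold changes between -0.21 and 0.24. In the libraries labelled KO no member was called against wild-type isotype by edgeR, DESeq2 or limma-voom. Of all genes 0% were called there by edgeR, 44 by DESeq2 and 32 by limma-voom. An unadjusted p under 0.05 was given by edgeR to 1 of the 10, Traf5, and to 5.77% of all genes. Between wild-type anti-CD40L and libraries labelled KO the same 2 genes, Traf5 and Traf4, were called, against 6.83% of all genes, 1.79% higher and 5.04% lower. The median of the members' log2 fold changes was -0.07, -0.07 and 0.01 in these 3 comparisons, beside -0.013, 0.002 and -0.01 over all genes tested.

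**Figure D1:**
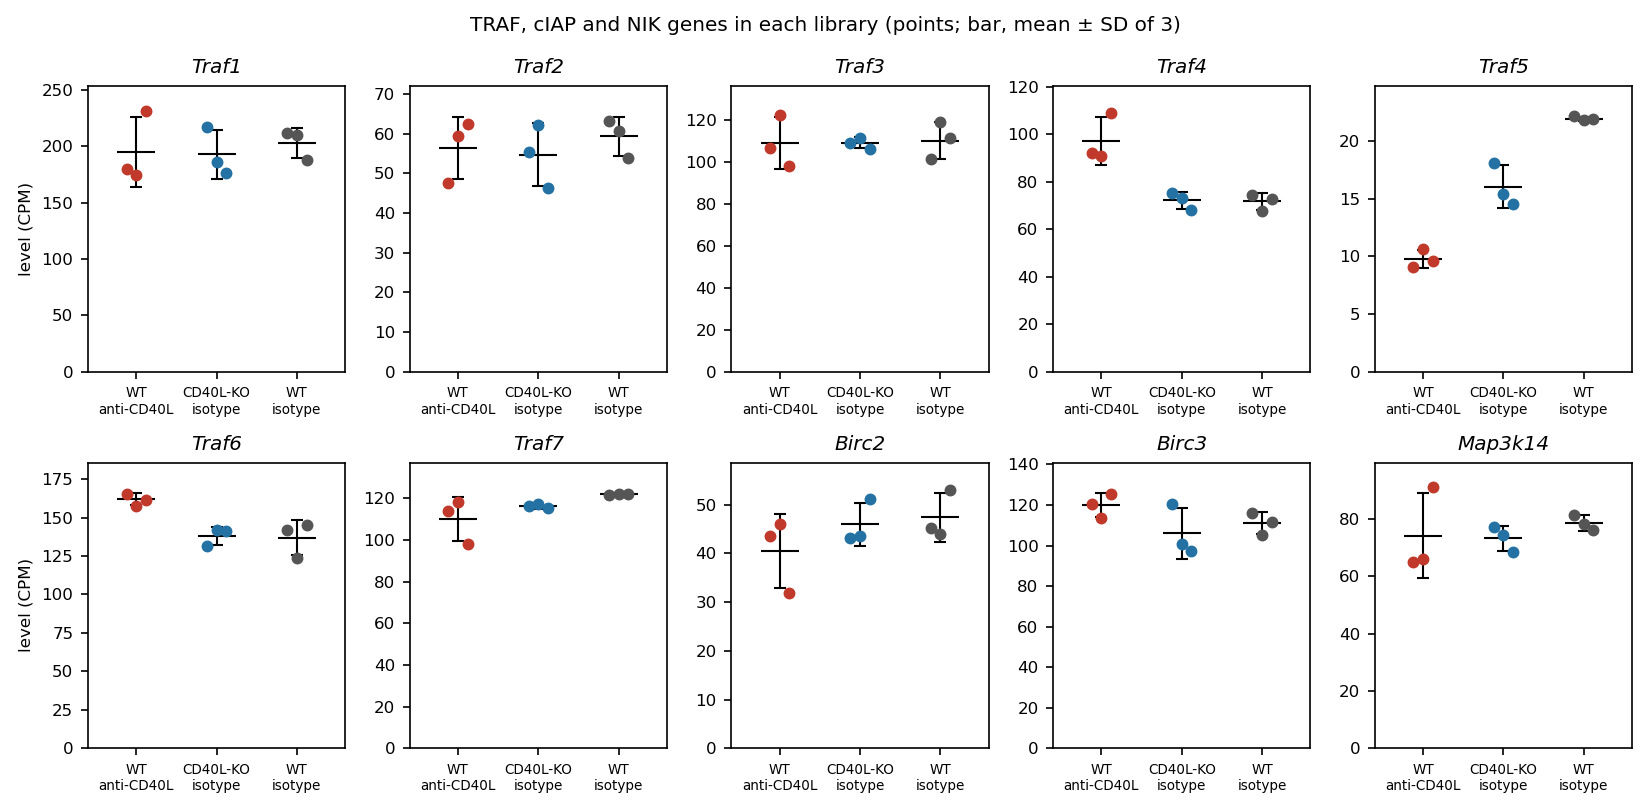
Level in CPM (vertical axis, from 0) of each of the 10 genes in each library, with the mean and SD of 3 libraries as bars, for wild-type anti-CD40L, libraries labelled KO on isotype, and wild-type isotype. Traf5 lies at 3 separate levels (9.1 to 10.6, 14.5 to 18.1 and 21.8 to 22.1 CPM), and the 3 anti-CD40L libraries of Traf4 (90.8 to 109.1 CPM) lie above the other 6.

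Traf5 encodes an adaptor of OX40 and CD27 that in mouse CD4+ T cells also binds the shared IL-6 receptor chain gp130 and restrains IL-6 signals. The gene (NM_011633) lies on the minus strand of chromosome 1, 191997203 to 192092599 (GRCm38). Traf5 was at 9.1, 10.6 and 9.6 CPM on anti-CD40L, 18.1, 15.4 and 14.5 CPM in KO-labelled libraries and 22.1, 21.8 and 21.9 CPM in wild-type isotype libraries. The 3 groups did not overlap, with anti-CD40L lowest, KO between and wild-type isotype highest. The counts behind these levels were 101.5, 104.5 and 49.5 on anti-CD40L, 167, 210.5 and 227.5 in KO-labelled libraries and 246.5, 228.5 and 191 in wild-type isotype, so Traf5 had the fewest counts of the 10 members.

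On anti-CD40L Traf5 averaged 9.78 ± 0.779 CPM, against 21.9 ± 0.188 CPM in wild-type isotype (SD, n = 3 each), and was lower by 2.24-fold (log2 fold change -1.16, SE 0.16, adjusted p = 0.000568, edgeR quasi-likelihood F test). The call was made in each of the 18 alternative settings, and without anti-CD40L replicate 3, the library that stood apart, the log2 fold change was -1.14. The libraries labelled KO averaged 16 ± 1.86 CPM (SD, n = 3), a log2 fold change of -0.46 against wild-type isotype (SE 0.15, 95% interval -0.78 to -0.14). That difference had an unadjusted p of 0.00848 and an adjusted p of 0.692 (edgeR quasi-likelihood F test). No alternative called it, and the lowest adjusted p among them was 0.0685, by limma-voom with quality weights. Since the wild-type isotype libraries are common to both comparisons, anti-CD40L against the libraries labelled KO is also the test of whether they differ: Traf5 was 1.63-fold lower on anti-CD40L (log2 fold change -0.70, SE 0.16, adjusted p = 0.0156, edgeR quasi-likelihood F test). This last call was lost without replicate 1 or replicate 2 labelled KO (adjusted p = 0.0824 and 0.069), without anti-CD40L replicate 1 (0.0791) and in a fit of these 2 groups alone (0.0716; edgeR quasi-likelihood F test). The 18 alternatives gave adjusted p-values of 0.00227 to 0.0824 by the test each one used.

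In these bulk libraries fewer cells of a type and less RNA per cell cannot be told apart. Summed over 8 B cell markers, the level was 1.72 to 13.6 CPM on anti-CD40L, 7.32 to 17.6 CPM in KO-labelled libraries and 13.2 to 38.4 CPM in wild-type isotype, beside 2702 to 3627 CPM for 6 T cell markers. All 8 had a count in each group. The summed B cell markers thus had the order of groups that Traf5 had, at a low level and with overlapping ranges, and their part in the result was not tested. Summed over 8 monocyte, macrophage and neutrophil markers it was 0 to 0.627 CPM, 2.48 to 8.67 CPM and 3.67 to 4.01 CPM in the 3 groups, with 5, 6 and 6 of the 8 holding a count and Ly6g at 0 in all groups. Markers of dendritic cells were at no more than 2.93 CPM in any library, and those of natural killer cells were at 4.97 to 19.5, 12.8 to 19.9 and 10.4 to 30.7 CPM in the 3 groups, with overlap. In GENCODE vM21 the exons of Traf5 share 205 bases with the antisense gene Gm26879, and 65 bases with Mir3473c on the same strand. No source used here says whether the counting used strand, so reads of Traf5 and Gm26879 cannot be told apart in their shared bases. Strand would not separate reads in the bases shared with Mir3473c.

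Traf4, an adaptor first found in breast carcinoma and known for roles in cell polarity and migration, moved the other way. The gene (NM_009423) lies on the minus strand of chromosome 11, 78158423 to 78165579. Traf4 was at 92.1, 90.8 and 109.1 CPM on anti-CD40L, 75.2, 73.2 and 68.3 CPM in KO-labelled libraries and 74.6, 67.8 and 73 CPM in wild-type isotype libraries. Every anti-CD40L library lay above all 6 isotype libraries, and the libraries labelled KO overlapped with wild-type isotype. The mean on anti-CD40L was 97.3 ± 10.2 CPM against 71.8 ± 3.54 CPM in wild-type isotype (SD, n = 3 each), 35.1% higher (log2 fold change 0.43, SE 0.10, adjusted p = 0.0138, edgeR quasi-likelihood F test). Against the libraries labelled KO, at 72.2 ± 3.54 CPM, it was 34.4% higher (log2 fold change 0.43, SE 0.10, adjusted p = 0.0155, edgeR quasi-likelihood F test). Between KO-labelled and wild-type isotype libraries the log2 fold change was 0.01 (95% interval -0.20 to 0.21). In some fits with a library left out, the Traf4 calls missed the threshold at a similar fold change. Against wild-type isotype the call was lost without isotype replicate 2 or 3 (log2 fold changes 0.39 and 0.45, adjusted p = 0.0648 and 0.0515, range over the 18 alternatives 0.000998 to 0.0648), and against the libraries labelled KO without KO replicate 2 (log2 fold change 0.45, adjusted p = 0.0671, range 0.00118 to 0.0671; edgeR quasi-likelihood F test). Without anti-CD40L replicate 3, where Traf4 was highest, the log2 fold change against wild-type isotype was 0.36.

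Traf6, the ubiquitin ligase that serves the IL-1 and Toll-like receptors and binds CD40 at a site of its own, lay on chromosome 2, 101678420 to 101701668. It was at 165.4, 157.6 and 161.7 CPM on anti-CD40L, 131.4, 141.7 and 141.2 CPM in KO-labelled libraries and 141.9, 123.4 and 144.9 CPM in wild-type isotype libraries. As for Traf4, the anti-CD40L libraries lay above the other 6 and the isotype groups overlapped. The log2 fold change of 0.24 against wild-type isotype (SE 0.08, 95% interval 0.06 to 0.42) missed the threshold, with an adjusted p of 0.0822 and a range of 0.0472 to 0.29 over the alternatives, of which DESeq2 alone called it (edgeR quasi-likelihood F test). Against the libraries labelled KO it was 0.23 (SE 0.08; edgeR quasi-likelihood F test, adjusted p = 0.121).

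**Figure D2:**
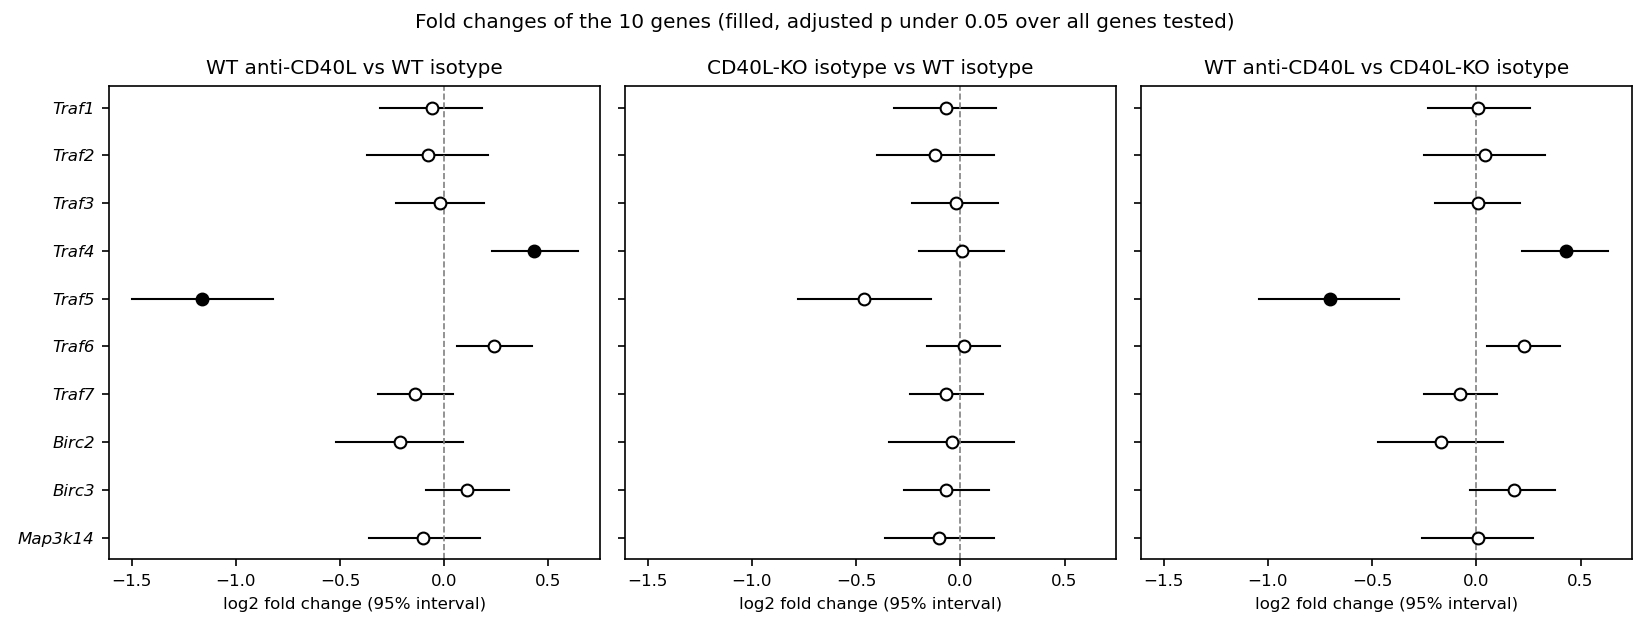
Log2 fold change (horizontal axis) of each gene with its 95% interval from the edgeR fit, in wild-type anti-CD40L against wild-type isotype, libraries labelled KO against wild-type isotype, and wild-type anti-CD40L against libraries labelled KO. Filled points passed an adjusted p of 0.05 over all genes: Traf5 (-1.16 and -0.70) and Traf4 (0.43 and 0.43) in the first and last panel, none in the middle one.

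The core of the NIK-degrading complex gave no called change in any comparison, by edgeR or in any of the 18 alternatives. Traf3, which brings NIK to the complex (chromosome 12, 111166321 to 111267155), was at 106.3, 122.3 and 97.8 CPM on anti-CD40L, 108.9, 111 and 106 CPM in KO-labelled libraries and 101.2, 118.9 and 111.3 CPM in wild-type isotype. Its groups overlapped, and the log2 fold change on anti-CD40L was -0.02 (95% interval -0.23 to 0.19), which leaves room for changes of up to about that size. Traf2, which carries the cIAPs (chromosome 2, 25517982 to 25546940), was at 47.5, 59.3 and 62.5 CPM on anti-CD40L, 55.4, 62.2 and 46.4 CPM in KO-labelled libraries and 63.3, 60.7 and 53.9 CPM in wild-type isotype. It too overlapped between all groups (log2 fold change -0.08 on anti-CD40L, 95% interval -0.37 to 0.21, and -0.12 in KO-labelled libraries, interval -0.40 to 0.16).

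Map3k14, the NIK gene (chromosome 11, 103219764 to 103267401), was at 64.9, 66.2 and 91.3 CPM on anti-CD40L, 77.2, 74.4 and 68.4 CPM in KO-labelled libraries and 81.4, 78.4 and 76.2 CPM in wild-type isotype. Replicate 3 of anti-CD40L was the highest of the 9 libraries and replicates 1 and 2 of that group were the lowest. The log2 fold change against wild-type isotype was -0.10 (95% interval -0.36 to 0.17), and -0.25 without that replicate, with an adjusted p of 0.0923 (edgeR quasi-likelihood F test; range over the alternatives 0.0923 to 0.976). Traf1, an adaptor without a RING domain that NF-kB induces and that supports 4-1BB signals in T cells (chromosome 2, 34941750 to 34961812), was also highest in anti-CD40L replicate 3. It was at 179.8, 174.6 and 231.4 CPM on anti-CD40L, 217.4, 186.5 and 176.1 CPM in KO-labelled libraries and 211.8, 209.7 and 188 CPM in wild-type isotype. Its log2 fold change against wild-type isotype was -0.06 (95% interval -0.31 to 0.18) and -0.19 without anti-CD40L replicate 3. Neither gene was called in either fit (edgeR quasi-likelihood F test, adjusted p = 0.769 and 0.242 for Traf1).

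The cIAP genes lie next to each other on chromosome 9, Birc2 at 7818226 to 7837131 and Birc3 at 7847468 to 7873205, and are closely related paralogs, so reads shared between them could be split by the counting. Birc2 (cIAP1) was at 43.6, 46 and 31.9 CPM on anti-CD40L, 43.2, 43.6 and 51.1 CPM in KO-labelled libraries and 45.2, 43.9 and 53.1 CPM in wild-type isotype. Anti-CD40L replicate 3, with 166.5 counts, was the lowest library, and the log2 fold change was -0.21 with it (95% interval -0.52 to 0.09) and -0.07 without it. Birc3 (cIAP2), itself an NF-kB target, was at 120.4, 113.7 and 125.3 CPM on anti-CD40L, 120.4, 100.6 and 97.4 CPM in KO-labelled libraries and 115.9, 105.2 and 111.7 CPM in wild-type isotype. Its groups overlapped in all comparisons, with log2 fold changes of 0.11 on anti-CD40L (95% interval -0.09 to 0.31) and -0.07 in KO-labelled libraries (interval -0.27 to 0.14).

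Traf7, which has WD40 repeats in place of the TRAF domain of the other 6 TRAFs (chromosome 17, 24508850 to 24527938), was at 113.8, 118 and 98.2 CPM on anti-CD40L, 116.4, 117.4 and 115.3 CPM in KO-labelled libraries and 121.4, 121.9 and 122.2 CPM in wild-type isotype. Both other groups lay below wild-type isotype without overlap, by 9.4% on anti-CD40L and by 4.5% in KO-labelled libraries. The 3 wild-type isotype libraries had a coefficient of variation of 0.315%, less than the 2.86% that counting alone gives on average at 1064.5 to 1355 counts. The test, which pools the spread over genes, called neither difference (edgeR quasi-likelihood F test, adjusted p = 0.289 and 0.955). The spread of Traf5 in wild-type isotype was likewise below that of counting, at 0.858% against 6.74%. Exons of Traf7 share 267 bases with Rab26 and 110 with Caskin1, and those of Map3k14 share 135 bases with 1700028N14Rik on the same strand.

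Over the 10 members, the groups did not overlap for 4 (Traf4, Traf5, Traf6 and Traf7) between anti-CD40L and wild-type isotype, where 32.6% of all genes tested did not (15.4% higher, 17.2% lower). They did not overlap for 2 (Traf5 and Traf7) between libraries labelled KO and wild-type isotype, beside 15.2% of all genes (7.61% higher, 7.62% lower), and for 3 (Traf4, Traf5 and Traf6) between anti-CD40L and libraries labelled KO, beside 26.2% (10.3% higher, 15.9% lower). The median size of the members' log2 fold change, without its sign, was 0.13 on anti-CD40L, against 0.21 over all genes. The genes compared were not matched to the members by level, so these medians do not show that the family was steadier than other genes.

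To compare the members with each other, CPM were divided by transcript length in kilobases. In wild-type isotype libraries the order of levels per kb was Traf1 at 87.4 ± 5.67, Birc3 at 41.6 ± 2.03, Traf7 at 40.6 ± 0.128, Traf4 at 34.6 ± 1.7, Traf2 at 27.6 ± 2.25, Traf6 at 22.2 ± 1.89, Map3k14 at 18.5 ± 0.624, Traf3 at 15.6 ± 1.25, Birc2 at 14.2 ± 1.49 and Traf5 at 11.2 ± 0.0958 CPM per kb (SD, n = 3). The neighbours Birc3 and Traf7 lay within their spread, as did Traf3 and Birc2. On anti-CD40L Traf4, at 46.8 ± 4.92 CPM per kb, stood above Traf7 at 36.6 ± 3.47 and next to Birc3 at 44.9 ± 2.19. Traf5 was lowest in each group, at 4.98 ± 0.397 CPM per kb on anti-CD40L and 8.16 ± 0.949 in KO-labelled libraries. Its length is that of the longest coding GENCODE transcript, 1964 bases, because the kept RefSeq row had no matching sequence there, so its place in the order is less sure than its change between groups.

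Summed over the 7 TRAF genes, the level per kb was 240 ± 16.2 on anti-CD40L, 228 ± 13.2 in KO-labelled libraries and 239 ± 6.69 in wild-type isotype (CPM per kb, SD, n = 3 each). Between anti-CD40L and wild-type isotype the sum thus differed by less than the spread of replicates, while the shares of Traf5 and Traf4 in it did not overlap. Traf5 made up 2.08% ± 0.221 of it on anti-CD40L, 3.57% ± 0.232 in KO-labelled libraries and 4.67% ± 0.116 in wild-type isotype. Traf4 made up 19.5% ± 0.812, 15.3% ± 0.16 and 14.5% ± 0.764 in the same groups. The share of Traf1, the most abundant, was 34.8% ± 3.28, 36.4% ± 2.21 and 36.5% ± 1.49, with overlapping libraries.

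**Figure D3:**
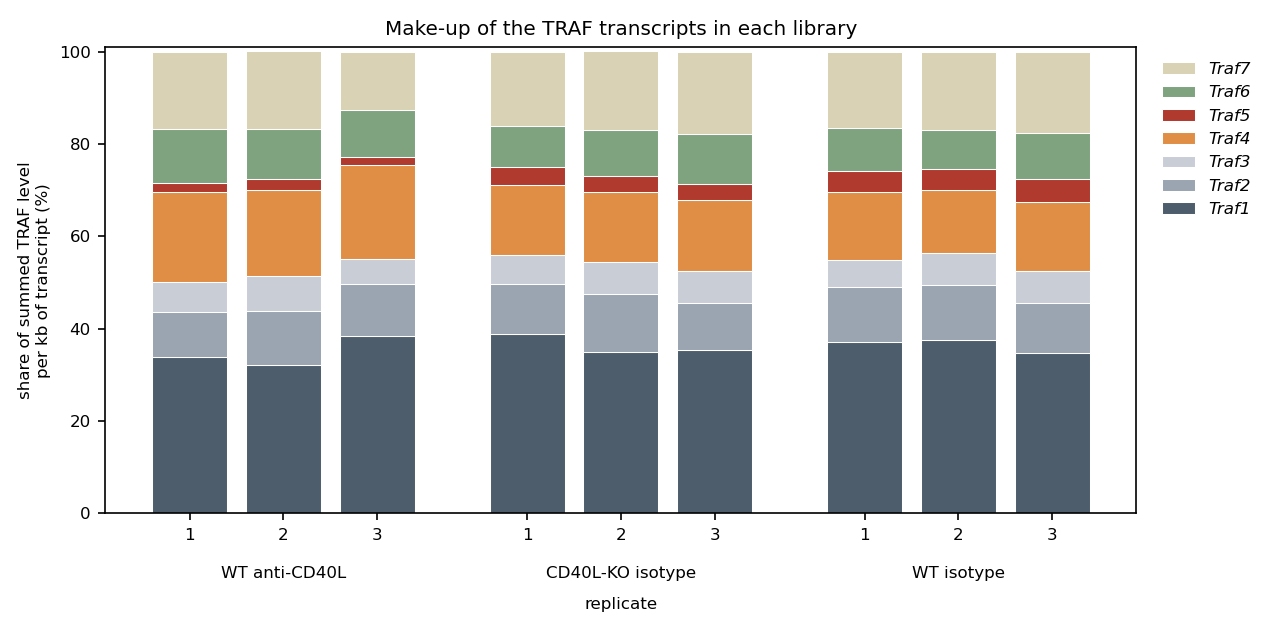
Share of each TRAF gene in the summed TRAF level per kb of transcript (vertical axis, percent) in each of the 9 libraries, grouped as wild-type anti-CD40L, libraries labelled KO on isotype and wild-type isotype. The Traf5 band is 1.88% to 2.32% on anti-CD40L and 4.59% to 4.81% in wild-type isotype, and the Traf4 band is 18.7% to 20.3% and 13.6% to 15.1%.

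The genes around the TRAFs were described by 6 lists holding 75 genes, of which 70 were tested. On anti-CD40L, 2 rose and 7 fell against wild-type isotype, 12.9% of those tested, beside 9.37% of all genes. Among 12 tested TNF receptor family members that use TRAFs, 2 rose and 2 fell, with a list median log2 fold change of -0.26, beside -0.013 over all genes. Tnfrsf4, the receptor OX40, which recruits TRAF2, TRAF3 and TRAF5, rose to 154 ± 12.6 CPM on anti-CD40L, against 113 ± 5.69 CPM in wild-type isotype (log2 fold change 0.44, SE 0.08, adjusted p = 0.00529, edgeR quasi-likelihood F test). Tnfrsf18, the costimulatory receptor GITR, rose to 85.8 ± 6.32 CPM on anti-CD40L, against 68 ± 2.93 CPM in wild-type isotype (SD, n = 3 each, log2 fold change 0.33, SE 0.10, adjusted p = 0.0459 by the same edgeR test). The tumour necrosis factor receptors moved the other way. Tnfrsf1a and Tnfrsf1b, the receptors TNFR1 and TNFR2, fell to 26.8 ± 1.7 and 213 ± 31.4 CPM on anti-CD40L, against 39.4 ± 2.68 and 288 ± 40.3 CPM in wild-type isotype (log2 fold changes -0.55 with SE 0.14 and -0.43 with SE 0.12, edgeR quasi-likelihood F test, adjusted p = 0.025 and 0.0407). The receptor Cd40 itself was too low to test, with 2, 0 and 0 counts on anti-CD40L, 1, 4 and 0 in KO-labelled libraries and 12, 18 and 4 in wild-type isotype. B cells also express Cd40, and the summed B cell markers given above had the same order of groups. Their part in the receptor values was not tested.

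Of these receptor calls only that of Tnfrsf4 was made in each of the 18 alternatives. The Tnfrsf18 call was lost in 9 of them, among them without any 1 anti-CD40L or wild-type isotype replicate other than anti-CD40L replicate 2 and without KO replicate 2 (highest adjusted p = 0.154). Tnfrsf1b was lost without any wild-type isotype replicate, anti-CD40L replicate 1 or 3, or KO replicate 2 (highest 0.175), and Tnfrsf1a without any wild-type isotype replicate or anti-CD40L replicate 1 (highest 0.104; edgeR quasi-likelihood F test). Against the libraries labelled KO, Tnfrsf4 was higher on anti-CD40L by a log2 fold change of 0.53 (SE 0.08, adjusted p = 0.00191) and Tnfrsf18 by 0.41 (SE 0.10, adjusted p = 0.0203; edgeR quasi-likelihood F test), the second being lost without KO replicate 2 or anti-CD40L replicate 1 (0.081 and 0.0657) and in the fit of these 2 groups alone (0.0568). Tnfrsf1a and Tnfrsf1b were not called there (log2 fold changes -0.45 with SE 0.14 and -0.35 with SE 0.12, edgeR quasi-likelihood F test, adjusted p = 0.0722 and 0.105). Of the 18 alternatives, 4 called Tnfrsf1a and 2 called Tnfrsf1b.

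Among 26 tested TRAF-binding adaptors and kinases, 3 fell and none rose on anti-CD40L, beside 6.46% of all genes lower and 2.91% higher. The list median log2 fold change was -0.18, beside -0.013 over all genes, and 2 of the 3 genes are described here. Traf3ip3, which encodes a TRAF3-binding membrane protein of lymphocytes, was at 72.5, 84.9 and 99.7 CPM on anti-CD40L, 147.6, 123.4 and 104.5 CPM in KO-labelled libraries and 162.8, 146 and 144.2 CPM in wild-type isotype. The anti-CD40L libraries lay below all 6 others. Traf3ip3 had a log2 fold change against wild-type isotype of -0.83 (SE 0.13, edgeR quasi-likelihood F test, adjusted p = 0.00205), called in each of the 18 alternatives. Against the libraries labelled KO it was -0.55 (SE 0.13, edgeR quasi-likelihood F test, adjusted p = 0.0248), and that call was lost under a replicate block (0.0515), in the fit of 2 groups (0.0692) and without replicate 1 or 2 of either group (highest 0.112). Ikbke, the kinase IKKε, was at 71.9, 59.1 and 82.7 CPM on anti-CD40L, against 146.7, 92.4 and 103.5 CPM in wild-type isotype, without overlap. It fell by 0.69 on the log2 scale (SE 0.16, adjusted p = 0.0182; edgeR quasi-likelihood F test), a call lost without wild-type isotype replicate 1 or anti-CD40L replicate 1 or 2 (highest 0.0835). In KO-labelled libraries Ikbke was at 101.2, 101.4 and 88.2 CPM, overlapping with wild-type isotype. Anti-CD40L against these libraries was not called (log2 fold change -0.45, SE 0.16, adjusted p = 0.116; edgeR quasi-likelihood F test). Of the alternatives, edgeR without the filter on low counts and limma-voom called it.

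Among 13 genes of ubiquitin editing in these complexes 2 fell and none rose on anti-CD40L, with a list median of -0.07, beside the same shares and median over all genes. Peli1, a ubiquitin ligase that restrains T cell activation in mice, fell to 151 ± 10.4 CPM, against 211 ± 10 CPM in wild-type isotype (SD, n = 3 each; log2 fold change -0.48, SE 0.08; edgeR quasi-likelihood F test, adjusted p = 0.00226). Tnip1, the A20 partner ABIN-1, was at 115.9, 114.4 and 108 CPM on anti-CD40L, 124.5, 119.5 and 108 CPM in KO-labelled libraries and 195.5, 156.5 and 136.2 CPM in wild-type isotype. Its anti-CD40L and KO libraries overlapped with each other and both lay below wild-type isotype. The log2 fold change was -0.53 on anti-CD40L (SE 0.12, adjusted p = 0.0138, lost at 0.0641 without wild-type isotype replicate 1) and -0.47 in KO-labelled libraries, which was not called (SE 0.12, unadjusted p = 0.0012, adjusted p = 0.366; edgeR quasi-likelihood F test). Without the filter on low counts edgeR called it (adjusted p = 0.00185, range over the 18 alternatives 0.00185 to 1). Peli1 was also lower on anti-CD40L than in KO-labelled libraries, at 194 ± 8.23 CPM (log2 fold change -0.36, adjusted p = 0.0151), a call lost without replicate 1 or 2 of either group (highest 0.0765) and in the fit of these 2 groups alone (0.0504; edgeR quasi-likelihood F test).

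The lists downstream of the TRAFs held no called gene in any comparison by edgeR. None of the 4 noncanonical genes, the 8 canonical NF-kB kinase, subunit and inhibitor genes or the 7 tested IAP and death complex genes passed the test on anti-CD40L (list medians 0.11, 0.05 and 0), where the unadjusted p was under 0.05 for 1, 0 and 0 of them, beside 26.4% of all genes, and DESeq2 and limma-voom each called 1, 0 and 0. Among the canonical genes limma-voom called 2 between anti-CD40L and the libraries labelled KO, and DESeq2 called 1 between the libraries labelled KO and wild-type isotype. Nfkb2, the substrate that NIK directs to processing, came nearest, at 329.8, 308.5 and 297.3 CPM on anti-CD40L, 296.3, 289.3 and 268.7 CPM in KO-labelled libraries and 277.2, 270.1 and 257.1 CPM in wild-type isotype. The anti-CD40L libraries lay above both other groups, and the log2 fold change of 0.22 against wild-type isotype (SE 0.08) had an adjusted p of 0.0868 (edgeR quasi-likelihood F test; range over the alternatives 0.0301 to 0.261, with calls by DESeq2 and limma-voom with quality weights). Rel, the subunit c-Rel, had a log2 fold change of 0.19 (SE 0.10, adjusted p = 0.256) and Casp8, the initiator caspase of death receptors, one of -0.20 (SE 0.10, adjusted p = 0.197; edgeR quasi-likelihood F test). In the libraries labelled KO 0 of the 70 list genes were called against wild-type isotype by edgeR. Its test gave 4 of the 70 an unadjusted p under 0.05, beside 5.77% of all genes. DESeq2 called 1 of the 70, a canonical gene other than Rel, and limma-voom called 0.

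**Figure D4:**
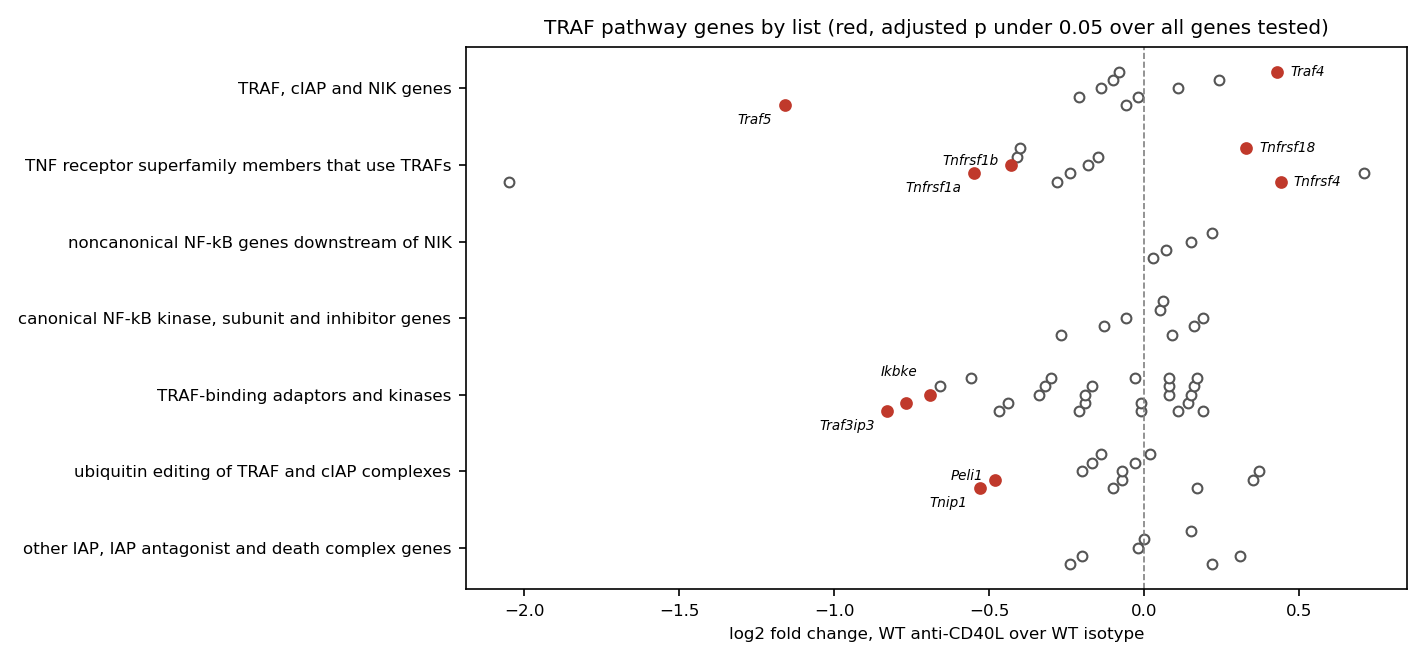
Log2 fold change of wild-type anti-CD40L over wild-type isotype (horizontal axis) for each tested gene of the TRAF, cIAP and NIK family and of the 6 lists around it, 1 row per list, with small vertical offsets for legibility. Red points passed an adjusted p of 0.05 over all genes: Traf5 at -1.16 and Traf4 at 0.43 in the family, 2 higher and 2 lower receptors, 3 lower adaptors and kinases and 2 lower ubiquitin-editing genes, and none in the other 3 lists.

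The genes whose pattern was most like those of the called members were named from 7978 genes of at least 10 CPM on average, by Pearson's r of log2 (CPM + 1) over the 9 libraries. For Traf5 these were Cnp (r = 0.986) and Otulinl (r = 0.985). Cnp averaged 37 ± 2.23, 66.8 ± 9.19 and 88.1 ± 10.1 CPM on anti-CD40L, with the KO label and in wild-type isotype, and Otulinl 47 ± 1.89, 75 ± 8.65 and 88 ± 3.94 CPM (SD, n = 3 each), the same order of groups as Traf5. For Traf4 they were Psmg1 (r = 0.969) and Copb2 (r = 0.964). Psmg1 averaged 60.2 ± 10.5, 44.1 ± 2.99 and 45.6 ± 2.47 CPM in those groups, and Copb2 290 ± 21.8, 236 ± 2.8 and 243 ± 2 CPM. These values describe likeness among libraries that share their groups and their scaling, and they were chosen as the highest of many.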

How the data were processed

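RNA-seq libraries of 9 samples, in 3 groups of 3 taken from the sample titles, were analysed from 1 table of expected counts for 42361 RefSeq transcripts, deposited by the authors without normalization. All values were multiples of 0.5, tested on the table. Per the submitters' processing notes, CASAVA 1.8.2, HISAT2 2.1.0 and build mm10 were used. No source used here names the counter, says whether strand was used or how reads that map to several places were handled, so paralogs and overlapping genes are uncertain.

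Symbols came from RefSeq GRCm38.p6 (42198 rows) and GENCODE vM21 (70 rows), with 93 rows left unnamed. The row of highest total was kept per gene, with fractions rounded up for testing. For the 6 members with several rows, the lowest row held at least 0.970 of the highest.

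Of 25160 genes, filterByExpr kept 11256. The edgeR 4.0.16 quasi-likelihood F test (robust, TMM, R 4.3.3, 1 term per group, all 9 libraries) gave log2 fold changes, standard errors (SE) and 95% intervals, and p-values were adjusted by Benjamini-Hochberg over all genes tested at a threshold of 0.05. The intervals are not adjusted for the number of genes. The common biological coefficient of variation was 0.127. DESeq2 1.42.0 and limma 3.58.1 served as alternatives. The code was tested on simulated data. Lengths came from GENCODE vM21 transcripts, promoters from RefSeq GRCm38.p6. Members and lists were chosen with earlier results of these data known. Named genes were all members, the called members of each list (at most 4, of smallest p) except 1 that is not reported here, the gene of smallest p in lists without a call, and for each called member the 2 genes of highest correlation.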

Additional observations from a re-analysis of the deposited data

How the results depend on the processing

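Over 18 alternatives, 30 member results (10 genes in 3 comparisons) gave 502 values with the direction and call of the reported fit, 7 lost calls, 1 gained call (Traf6 by DESeq2) and 30 changes of sign among values that were called in neither fit. The Traf5 fall on anti-CD40L against wild-type isotype was called throughout. The count of members called was 2 there, 1 to 2 when each library was left out, and 2 between anti-CD40L and libraries labelled KO, with 0 to 2 when each library was left out and 1 in a fit of the 2 groups alone. In libraries labelled KO against wild type it was 0 throughout (range 0 to 0). Over all genes, the counts on anti-CD40L against wild-type isotype, in KO-labelled libraries against wild-type isotype and on anti-CD40L against libraries labelled KO were 1055, 0 and 769. Without the filter on low counts they were 1698, 102 and 1305, and by DESeq2 1635, 44 and 1219. By limma-voom with quality weights they were 1577, 32 and 1464, and in fits of only the 2 groups compared 1055, 3 and 481. Leaving out each library in turn gave 486 to 1342, 0 to 2 and 346 to 1022. Of the calls on anti-CD40L against wild-type isotype, 328 were higher in the reported fit, against 64, 88 and 100 without wild-type isotype replicate 2, 1 and 3, 78 without anti-CD40L replicate 1, 186 without KO replicate 2, 528 without KO replicate 3, 650 by DESeq2, 623 by limma-voom and 628 without the filter. The causes were not tested.

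With the replicate number as a block the counts were 954, 0 and 664, with 2, 0 and 2 members called. The numbers do not show that libraries are paired: over 9 pairs with the same number the correlation of deviations from the group means was -0.212 to 0.203. The block ended the calls of Tnfrsf18 against wild-type isotype (adjusted p = 0.0682; edgeR quasi-likelihood test) and of Traf3ip3 against the libraries labelled KO. Depth limits Traf5 most, with 49.5 to 246.5 counts per library.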
